A study of Mus musculus with 12 samples.

Results

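Amacrine cells are the inhibitory interneurons of the inner retina. Most use either GABA or glycine as transmitter, and a few subtypes add acetylcholine (the starburst cells) or dopamine. A transmitter type is read from the enzyme that makes the transmitter and from the carriers that load it into vesicles or take it back up, and AP-2 transcription factors mark most amacrine cells during and after development. Horizontal cells share the vesicular carrier Slc32a1 and the AP-2 factors, so none of these genes alone is a perfect marker.

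The 9 genes examined here were Gad1 and Gad2 (GABA synthesis), Slc32a1 (vesicular loading of GABA and glycine), Slc6a9 (glycine uptake), Chat and Slc18a3 (acetylcholine synthesis and vesicular loading), Th (the rate-limiting enzyme of dopamine synthesis), and Tfap2a and Tfap2b (AP-2 factors). They were taken by symbol from the 53707 genes of the count table, and 7 of the 9 passed the filter on low counts that left 21061 genes for testing; Slc18a3 and Th did not. RNA-seq was done on whole retinas of wild-type C57BL/6J mice at 28 days of age, freed of sclera and pigment epithelium and kept for 48 hours in Neurobasal-A medium with 5 mM or 25 mM glucose. Each concentration had 3 biological replicates and each replicate 2 technical libraries, the first in batch 1 and the second in batch 2, which gave 12 libraries. What separates technical libraries (the retina, the RNA or the library preparation) is not given in the sources used here, nor is the number of animals behind a biological replicate, so p-values measure only the spread between these samples. The retina is bulk tissue, in which fewer cells of a type and less RNA per cell cannot be told apart.

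Library totals ran from 17998905 to 36692484 estimated counts at 5 mM and from 14815285 to 23129541 at 25 mM. Mitochondrial genes took 5.912% to 15.4% of a library, the highest share being in the batch 1 library of replicate 2 at 25 mM. The tissue label was checked against markers. The summed level of 10 rod genes was 3203 to 5554 CPM (counts scaled to library size) at 5 mM and 5333 to 18160 CPM at 25 mM, whereas 10 genes of pigment cells and pigment epithelium summed to 4.716 to 12.45 CPM and 4.515 to 6.739 CPM. Pax6, the factor shared by amacrine, horizontal and ganglion cells, was well expressed at 233 CPM and 191 CPM.

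Gad1, Gad2 and Slc32a1 were all lower at 25 mM in every replicate, and the DNA upstream of their RefSeq starts is given for that reason, from RefSeq on GRCm38.p6, plus strand, 5′ to 3′. Each run begins 250 bases before the RefSeq start and stops before the next annotated exon of the gene, or at the RefSeq start where that comes first. Capitals mark letters that match the AP-2 motif GCCNNNGGC in Gad2 and TATAAA, on the minus strand, in Gad1. The windows are chr2:70561879-70562041 for Gad1, chr2:22622077-22622204 for Gad2 and chr2:158610508-158610757 for Slc32a1. The annotated transcript that held most Gad1 counts, Gad1-206, begins further downstream, at chr2:70566377, so the Gad1 run is not the DNA next to its start.
Gad1: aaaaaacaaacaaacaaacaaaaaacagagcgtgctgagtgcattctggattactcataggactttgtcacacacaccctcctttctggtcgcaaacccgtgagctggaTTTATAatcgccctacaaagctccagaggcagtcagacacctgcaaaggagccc
Gad2: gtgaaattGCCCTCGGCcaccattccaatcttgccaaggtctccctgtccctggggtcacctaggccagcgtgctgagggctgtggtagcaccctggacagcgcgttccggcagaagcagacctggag
Slc32a1: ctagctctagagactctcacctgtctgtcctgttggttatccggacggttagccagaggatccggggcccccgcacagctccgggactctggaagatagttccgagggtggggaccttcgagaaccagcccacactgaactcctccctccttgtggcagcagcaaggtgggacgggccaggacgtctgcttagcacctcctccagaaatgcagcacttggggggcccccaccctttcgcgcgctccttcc

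The 5 motifs were searched on both strands in the 300 bases around each RefSeq start (250 before, 50 after), where 12 windows were found for the 9 genes: 3 for Slc6a9, 2 for Tfap2a and 1 for each of the others. The AP-2 letters GCCNNNGGC stood in Gad2, with 2 matches beginning at −242 and −121, and in Slc18a3, with 3 matches at −140, −133 and −89. The first 2 of those in Slc18a3 overlap each other, and the first also overlaps a match to the GC box. Of all 32851 windows of that length, 16.6% hold at least 1 such match. The cyclic AMP response element TGACGTCA stood only in Th among these windows, at −45, and in 1.79% of all windows. The GC box GGGCGG was matched in 6 of the 12 windows (Gad1, Th, Slc18a3, both of Tfap2a and 1 of Slc6a9) and in 35.7% of all. TATAAA was matched only in Gad1 among the 12, at −141, and in 13.6% of all, and the E-box CANNTG in 8 of the 12 and in 72.3% of all. The windows follow RefSeq starts and not the transcripts with most counts. The Tfap2b window (chr1:19211804-19212103) lies downstream of the start of Tfap2b-201, at 19208914, which held 99.1% of Tfap2b counts at 5 mM and 98.7% at 25 mM. The Gad1 window (chr2:70561879-70562178) lies upstream of the start of Gad1-206, at 70566377, which held 80.1% and 84.6% of Gad1 counts. These matches are descriptions of letters only.

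RNA of the synthetic enzymes of GABA stood lower at 25 mM glucose. Gad1 (ENSMUSG00000070880, chromosome 2, 70553072 to 70602014, plus strand of GRCm38), which makes the cytosolic enzyme GAD67, measured 142, 140 and 135 CPM in replicates 1 to 3 at 5 mM and 84.8, 79.6 and 55.4 CPM at 25 mM. All 3 replicates at 25 mM lay below all 3 at 5 mM, and the means were 139 ± 3.48 CPM and 73.2 ± 15.7 CPM (SD, n = 3). The log2 fold change, 25 mM minus 5 mM, was −0.92 (standard error 0.19). In edgeR's quasi-likelihood test the unadjusted p was 0.0012, and the Benjamini-Hochberg adjusted p over all genes tested was 0.0522, just short of 0.05.

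Gad2 (ENSMUSG00000026787, chromosome 2, 22622205 to 22693874, plus strand), which makes GAD65, the form attached to synaptic vesicles, followed the same course. It measured 80.7, 59.3 and 63.4 CPM at 5 mM and 35.8, 40.9 and 27.6 CPM at 25 mM, again without overlap between the conditions. The means were 67.8 ± 11.3 CPM and 34.8 ± 6.74 CPM (SD, n = 3), a log2 fold change of −0.96 (standard error 0.21) with an edgeR adjusted p of 0.0562.

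Slc32a1 (ENSMUSG00000037771, chromosome 2, 158610767 to 158615748, plus strand) encodes VGAT, the carrier that fills vesicles with GABA and glycine. It measured 2.28, 6.49 and 4.34 CPM at 5 mM against 1.72, 1.18 and 1.38 CPM at 25 mM. The 25 mM replicates were again the lower ones, although replicate 1 at 5 mM was close to them. The means were 4.37 ± 2.11 CPM and 1.42 ± 0.272 CPM (SD, n = 3), and the log2 fold change was −1.61 (standard error 0.41) with an edgeR adjusted p of 0.0697. Estimated counts for this gene lay between 16 and 158 per library.

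None of the 9 genes was called at an adjusted p under 0.05 by edgeR (0 of the 7 tested), a rule that 1.98% of all genes tested passed, and 0.513% passed with lower values at 25 mM. At an unadjusted p under 0.05 there were 4 of 7, of which 3 were lower at 25 mM; over all genes tested the same rule took 28.7%, and 15.5% were lower. In the same 4 genes the replicates of both conditions did not overlap, 3 of them with lower values at 25 mM, compared with 31.8% and 15.8% of all genes. DESeq2 called those 4 (Gad1, Gad2, Slc32a1 and Chat), with adjusted p-values of 0.00172, 0.00252, 0.00279 and 0.0425, among 3489 genes that it called in all. The median log2 fold change of the 7 was −0.01, and that of all genes tested was −0.01 as well; in batch 2 alone the median of the 7 was −0.62.

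**Figure D1:**
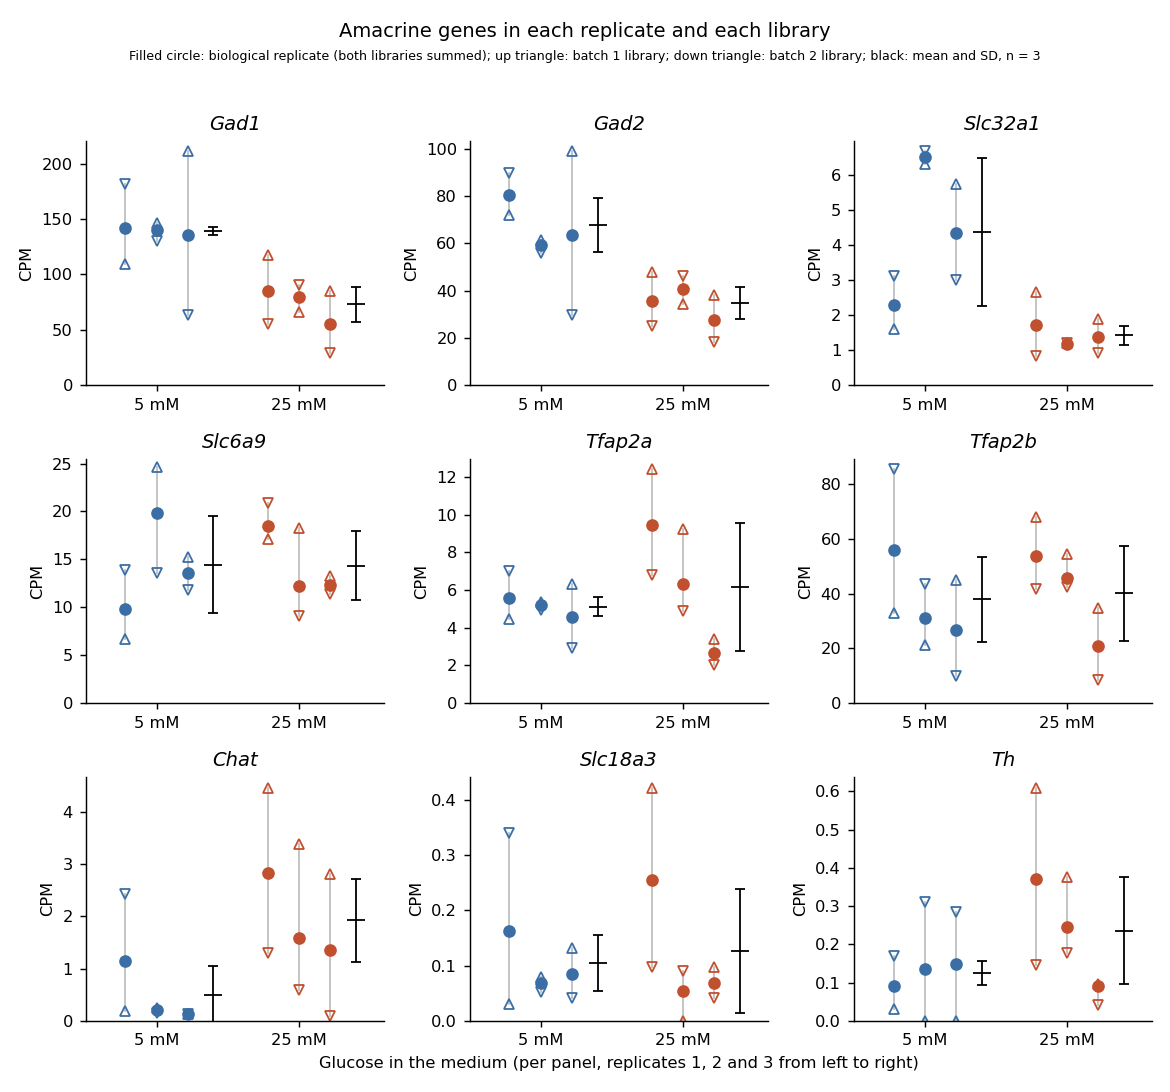
CPM of the 9 genes at 5 mM (blue) and 25 mM (red) glucose; filled circles are biological replicates, open triangles their batch 1 (up) and batch 2 (down) libraries, and black bars the mean and SD (n = 3), drawn only down to 0. Gad1 replicates sit between 135 and 142 CPM at 5 mM and between 55.4 and 84.8 CPM at 25 mM, while the 2 libraries of a replicate can lie as far apart as 211 and 63.7 CPM.

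The calls for the GABA genes depended on the composition correction and on a single replicate. Slc32a1 transcripts are 61.9% G and C, more than in 99.1% of genes tested, against 46.6% in Gad1 and 44.1% in Gad2 (median of genes tested 48.7%). When an offset for base composition and length was added, the log2 fold changes became −1.01 for Gad1, −1.08 for Gad2 and −0.86 for Slc32a1, with edgeR adjusted p-values of 0.0151, 0.00757 and 0.0441, so that all 3 were called and the difference in Slc32a1 shrank. The offset raised calls across the whole table, to 2956 of 21061 genes tested from 417 without it. Without replicate 1 at 5 mM, edgeR called Gad1, Gad2, Slc32a1 and Chat, at adjusted p-values of 0.019, 0.023, 0.012 and 0.011, among 5845 genes in all. Leaving out replicate 2 or 3 at 5 mM, or replicate 1 or 2 at 25 mM, left 0 genes called by edgeR in the whole table, with 3813 to 4071 genes at an unadjusted p under 0.05.

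Within batches the GABA genes kept their direction. In batch 1 the log2 fold changes were −0.82 for Gad1, −0.97 for Gad2 and −1.25 for Slc32a1, and in batch 2 they were −1.12, −0.99 and −2.11. Of these 3 genes Gad2 in batch 1 passed, with an edgeR adjusted p of 0.0306, among 3279 of 18969 genes called there. The edgeR adjusted p-values in batch 2 were 0.427, 0.438 and 0.391. Libraries of the conditions overlapped for Gad1 in both batches, for Gad2 in batch 2 and for Slc32a1 in batch 1. Both batches hold libraries of the same 3 replicates per concentration, so their shared direction is not independent evidence. In batch 2 edgeR called 0 genes of the whole table, with 2203 of 18811 at an unadjusted p under 0.05. A batch term fitted within biological replicates gave differences between the batches' glucose effects of −0.36 (standard error 0.72) for Gad1, −0.03 (0.60) for Gad2 and −0.95 (0.67) for Slc32a1, with adjusted p-values of 0.826, 0.985 and 0.5.

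The 2 GABA enzymes kept close to a fixed ratio. Over the 12 libraries Gad1 exceeded Gad2 by 1.52 to 2.45 times in CPM, and the mean log2 ratio within a replicate was 1.05 ± 0.22 at 5 mM and 1.07 ± 0.15 at 25 mM (SD, n = 3). The difference of 0.02 had a two-sided exact permutation p of 0.9, with 0.9 after adjustment over the 6 ratios tested; 3 against 3 cannot go below 0.1. Slc32a1 relative to Gad2 had a mean log2 ratio of −4.07 ± 1.00 at 5 mM and −4.60 ± 0.44 at 25 mM, a difference of −0.53 within the spread (exact permutation p = 0.5, adjusted 0.75). The Pearson correlation of Gad1 and Gad2 in log2 CPM over the 12 libraries was 0.964, and it was 0.941 after the mean of each condition was removed; the libraries share replicates, so this is a description.

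**Figure D2:**
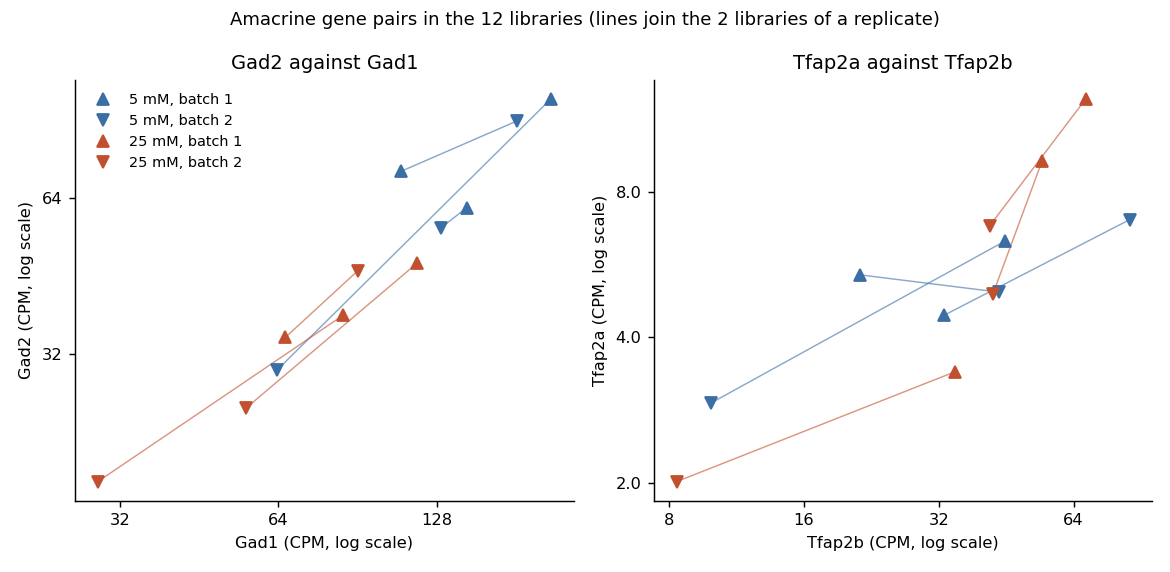
Gad2 against Gad1 and Tfap2a against Tfap2b in CPM on log axes in the 12 libraries; lines join the 2 libraries of a replicate. Gad1 over Gad2 stays between 1.52 and 2.45 times at both concentrations, and the 2 libraries of a replicate are often far apart along it.

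Most Gad1 counts were placed on a transcript that is not annotated as coding. Of the 8 annotated transcripts, Gad1-206, of the type processed transcript (2996 bases, 16 exons, chr2:70566377-70602012), carried 80.1% ± 9.03 of Gad1 counts at 5 mM and 84.6% ± 2.85 at 25 mM (SD, n = 3). Gad1-201, the long coding transcript (3355 bases, 17 exons), carried 16.9% ± 8.03 and 10.4% ± 2.10. The 2 transcripts have 14 exons with the same start and end, and their 3′ ends lie 2 bases apart. They differ at the 5′ end, where Gad1-201 has 2 exons (434 bases) before the first shared exon and Gad1-206 has a 77-base exon in their place, so the assignment rests on that stretch. It is given here for that reason, from the GENCODE M21 transcripts: capitals are the last 77 bases before the shared exon, lower case the first 40 bases of that exon (chr2:70567186-70567225). The capitals come from chr2:70563834-70563910 in Gad1-201, within its coding sequence, and from chr2:70566377-70566453 in Gad1-206.
Gad1-201: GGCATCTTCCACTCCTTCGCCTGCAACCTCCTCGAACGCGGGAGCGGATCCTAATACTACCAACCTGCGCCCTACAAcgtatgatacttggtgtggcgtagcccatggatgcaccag
Gad1-206: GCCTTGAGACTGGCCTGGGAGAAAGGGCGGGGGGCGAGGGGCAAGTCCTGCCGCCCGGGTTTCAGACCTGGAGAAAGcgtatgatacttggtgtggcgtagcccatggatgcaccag

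In CPM Gad1-206 measured 127.5, 96.1 and 110.2 at 5 mM and 73.0, 69.8 and 45.0 at 25 mM, and Gad1-201 measured 12.7, 33.8 and 23.0 against 7.12, 8.17 and 6.98. Both were lower in every replicate at 25 mM. The share of Gad1 on transcripts that are not of coding type, 83.7% over all libraries, compares with a median of 5.245% over 16055 coding genes, of which 570 (3.55%) had a share at or above it. Gad2 had 0.0718% of its counts on such transcripts and 99.9% to 100% on Gad2-201. Estimated counts divide reads that match several transcripts, so the split is an estimate of the counting tool and not a count of molecules.

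**Figure D3:**
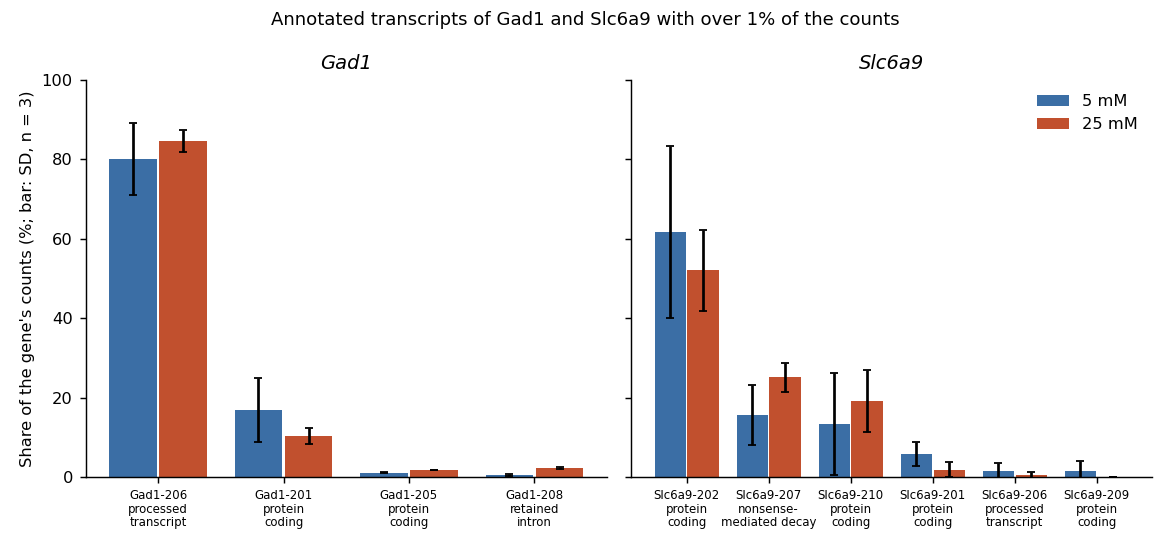
Share of the counts of Gad1 and Slc6a9 placed on each annotated transcript with over 1% (bars, mean; error bars, SD over 3 replicates). Gad1-206 holds 80.1% and 84.6% of Gad1 at 5 mM and 25 mM, while Slc6a9 is spread over several transcripts with wide errors.

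Genes that clear or break down GABA were listed beside the members, among them Slc6a11 and Slc6a13 (plasma membrane carriers GAT-3 and GAT-2), Abat and Aldh5a1 (GABA breakdown) and Slc38a1 (a glutamine carrier that supplies neurons). None of the 6 passed at an adjusted p under 0.05, and 2 had an unadjusted p under 0.05, both lower at 25 mM. The median log2 fold change was −0.30. Slc6a13, known from the pia and vessels rather than neurons, had the lowest value, 8.36 CPM against 1.90 CPM (log2 fold change −2.14, edgeR adjusted p 0.0678). The highest value was that of Aldh5a1, at 0.04 (adjusted p 0.92).

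The glycine carrier did not separate the conditions. Slc6a9 (ENSMUSG00000028542, chromosome 4, 117834506 to 117875198, plus strand), which encodes GlyT1 and marks glycinergic amacrine cells in the retina, measured 9.86, 19.9 and 13.5 CPM at 5 mM and 18.5, 12.2 and 12.4 CPM at 25 mM. The means were 14.4 ± 5.07 CPM and 14.4 ± 3.57 CPM (SD, n = 3), and the replicates overlapped throughout. The log2 fold change was −0.01 (standard error 0.31, edgeR adjusted p 0.991), and with the GC and length offset it was 0.47 (adjusted p 0.17). Its sign was positive with library totals and in each batch alone, so no direction is given. Exons of Slc6a9 overlap those of Ccdc24 and B4galt2 on the other strand, and whether counting used the strand is not given in the sources used here.

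Relative to Gad2, Slc6a9 stood at a mean log2 ratio of −2.28 ± 0.73 at 5 mM and −1.28 ± 0.41 at 25 mM (SD, n = 3), a difference of 0.99 with an exact permutation p of 0.2 (adjusted 0.6). Replicate 2 at 5 mM, at −1.58, lay inside the range of the 25 mM replicates. Of the Slc6a9 counts, Slc6a9-202 (coding) held 61.8% ± 21.6 at 5 mM and 52.0% ± 10.3 at 25 mM. Slc6a9-207, annotated for nonsense-mediated decay, held 15.7% ± 7.55 and 25.1% ± 3.54 (SD, n = 3). In CPM Slc6a9-207 measured 2.39, 1.87 and 1.77 at 5 mM and 4.67, 3.19 and 2.83 at 25 mM, without overlap and untested. Slc6a9-207 ends at 117875196, within the span of B4galt2 on the other strand (117869260 to 117883487), whereas Slc6a9-202 ends at 117869296. Whether reads of B4galt2 entered the counts of Slc6a9-207 was not tested.

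Glycine supply and cleavage genes gave 0 calls among 6 and 2 with an unadjusted p under 0.05, both lower at 25 mM, and a median log2 fold change of −0.23. Gldc, the decarboxylase of the glycine cleavage system, had the lowest value, with 55.0 CPM against 30.6 CPM, a log2 fold change of −0.84 and an edgeR adjusted p of 0.0757. The highest was that of Slc6a5, which encodes the neuronal glycine carrier GlyT2, at 0.81 (4.27 CPM against 7.50 CPM, adjusted p 0.288).

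Chat was the one member with higher values at 25 mM in every replicate, and the difference was seen in batch 1 but not in batch 2. Chat (ENSMUSG00000021919, chromosome 14, 32408203 to 32465989, minus strand), the enzyme of acetylcholine synthesis and the defining gene of starburst amacrine cells, measured 1.14, 0.20 and 0.13 CPM at 5 mM and 2.83, 1.59 and 1.36 CPM at 25 mM. The means were 0.490 ± 0.563 CPM and 1.92 ± 0.792 CPM (SD, n = 3), and the log2 fold change was 1.94 (standard error 0.73, unadjusted p 0.0286, edgeR adjusted p 0.133). Replicate 1 at 5 mM, the highest of its group, lay nearest to the 25 mM values.

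In batch 1 Chat had 6, 6 and 3 estimated counts at 5 mM (0.184, 0.239 and 0.132 CPM) and 95, 45 and 58 at 25 mM (4.45, 3.39 and 2.81 CPM). The batch 1 libraries of the conditions were far apart, with a log2 fold change of 4.19 (standard error 0.47) and an edgeR adjusted p of 0.00758. In batch 2 it had 57, 3 and 3 counts at 5 mM (2.42, 0.155 and 0.122 CPM) and 27, 13 and 2 at 25 mM (1.30, 0.580 and 0.0837 CPM). There the groups overlapped, and the log2 fold change was −0.52 (standard error 1.20, adjusted p 0.856). The difference between the batches, tested within biological replicates, was −4.27 on the log2 scale (standard error 1.36, unadjusted p 0.0138, edgeR adjusted p 0.224 over 18725 genes). In that test 3056 of the 18725 genes had an unadjusted p under 0.05, and 0 were called. With replicate 1 at 5 mM represented by its batch 1 library alone, a setting chosen after the data were seen, edgeR called Chat, Gad1 and Gad2 among 1731 genes in all.

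Slc18a3 (ENSMUSG00000100241, chromosome 14, 32462438 to 32464850, minus strand), the vesicular acetylcholine carrier, is a gene of 1 exon that lies wholly inside the first intron of Chat on the same strand, an arrangement known as the cholinergic gene locus. It had 0 to 9 estimated counts per library. Its replicates measured 0.163, 0.0679 and 0.0851 CPM at 5 mM and 0.255, 0.0547 and 0.0678 CPM at 25 mM, and overlapped. The means were 0.105 ± 0.0504 CPM and 0.126 ± 0.112 CPM (SD, n = 3; exact permutation p = 1). The count of 0 in the batch 1 library of replicate 2 at 25 mM allows up to 0.226 CPM (3 counts), which is above most of the measured values, so a difference was not detectable at this depth.

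Slc18a3 relative to Chat had mean log2 ratios of −1.53 ± 1.15 at 5 mM and −4.04 ± 0.58 at 25 mM (SD, n = 3), and the 25 mM replicates were the lower ones in all 3 cases. The difference of −2.51 had an exact permutation p of 0.1, the smallest this design allows, and 0.6 after adjustment; it rests on 2 to 11 counts of Slc18a3 per replicate and a pseudocount of 0.5, and with a pseudocount of 5 it was −1.97. Within batch 2 alone it was −0.51 and within batch 1 −3.70.

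Other genes of the starburst and acetylcholine list gave 0 calls among 7 and 1 with an unadjusted p under 0.05. Of the 7, 6 had positive values, and the median log2 fold change was 0.45. As for Chat, the batches differed. In batch 1 alone the median was 1.22, and edgeR called 4 of the 7 higher at 25 mM, among 3279 of 18969 genes called in all. The bipolar list had 6 of 10 called higher there. In batch 2 alone the median was −0.13, and edgeR called none of the list and none of all genes (2203 of all genes at an unadjusted p under 0.05). The difference between batches was not tested for the list. Slc5a7, the high-affinity choline carrier, had the highest value, 3.46 CPM against 9.48 CPM (log2 fold change 1.45, standard error 0.95, edgeR adjusted p 0.335). The lowest was Slc10a4, a vesicle protein of cholinergic neurons, at −0.01 (adjusted p 0.997). The gene with an unadjusted p under 0.05 was Ache, which breaks down acetylcholine, at 12.8 CPM and 20.1 CPM (adjusted p 0.129); it was chosen after its values were seen.

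Th was sparse, and like Chat its order differed between the batches. Th (ENSMUSG00000000214, chromosome 7, 142892752 to 142931128, minus strand) marks the few dopaminergic amacrine cells of a retina. It had 0 to 13 estimated counts per library. Its replicates measured 0.0903, 0.136 and 0.149 CPM at 5 mM and 0.371, 0.246 and 0.0904 CPM at 25 mM. The means were 0.125 ± 0.0308 CPM at 5 mM and 0.236 ± 0.141 CPM at 25 mM (SD, n = 3; exact permutation p = 0.3). The highest library was the batch 1 library of replicate 1 at 25 mM, with 13 counts, and the counts were 0 in the batch 1 libraries of replicates 2 and 3 at 5 mM, which allows up to 0.12 and 0.132 CPM. In batch 1 it had 1, 0 and 0 counts at 5 mM and 13, 5 and 2 at 25 mM, with means of 0.0102 ± 0.0177 CPM and 0.361 ± 0.256 CPM (SD, n = 3) and no overlap. In batch 2 it had 4, 6 and 7 counts at 5 mM and 3, 4 and 1 at 25 mM, with means of 0.255 ± 0.0746 CPM and 0.122 ± 0.0712 CPM, and the libraries overlapped. Neither batch was tested for Th, which did not pass the filter on low counts. Relative to Chat its mean log2 ratio was −1.27 ± 1.97 and −3.13 ± 0.67 (SD, n = 3), with overlap between the conditions (exact permutation p = 0.3, adjusted 0.6).

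Of 6 other dopamine genes 5 were tested and 0 called, with 1 higher and 2 lower at an unadjusted p under 0.05. The range ran from −1.08 for Gch1, the enzyme that supplies the cofactor of tyrosine hydroxylase (10.5 CPM against 4.98 CPM, edgeR adjusted p 0.0966), to 1.24 for Slc18a2, the vesicular monoamine carrier (0.646 CPM against 1.55 CPM, adjusted p 0.353). The median was −0.17.

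The AP-2 factors did not separate the conditions. Tfap2b (ENSMUSG00000025927, chromosome 1, 19208914 to 19238576, plus strand) measured 55.8, 31.3 and 26.8 CPM at 5 mM and 53.7, 45.7 and 20.7 CPM at 25 mM. The log2 fold change was 0.08 (standard error 0.39, edgeR adjusted p 0.913), with means of 37.9 ± 15.6 CPM and 40.1 ± 17.2 CPM (SD, n = 3). Tfap2a (ENSMUSG00000021359, chromosome 13, 40715302 to 40738376, minus strand) measured 5.58, 5.23 and 4.57 CPM at 5 mM and 9.44, 6.35 and 2.67 CPM at 25 mM. The 25 mM replicates enclosed the 5 mM values, and the log2 fold change was 0.26 (standard error 0.42, adjusted p 0.701). The 3 antisense genes that overlap exons of Tfap2a held 38.8, 45.9 and 11.98 counts in all libraries together.

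In batch 1 Tfap2a and Tfap2b had log2 fold changes of 0.61 and 0.64, and in batch 2 of −0.14 and −0.62, so that the sign of both differed between the batches. The batch difference was −0.67 (standard error 0.50) for Tfap2a and −1.22 (standard error 0.96) for Tfap2b, with edgeR adjusted p-values of 0.527 and 0.548. The ratio of Tfap2a to Tfap2b was much the same at both concentrations, −2.81 ± 0.44 and −2.77 ± 0.23 on the log2 scale (SD, n = 3; exact permutation p = 0.8, adjusted 0.9), and their correlation over the 12 libraries was 0.839. The other AP-2 genes, Tfap2c, Tfap2d and Tfap2e, gave 0 calls by edgeR among 3, and none had an unadjusted p under 0.05. They ran from −0.67 for Tfap2c (5.63 CPM against 3.53 CPM, adjusted p 0.195) to 0.05 for Tfap2e.

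**Figure D4:**
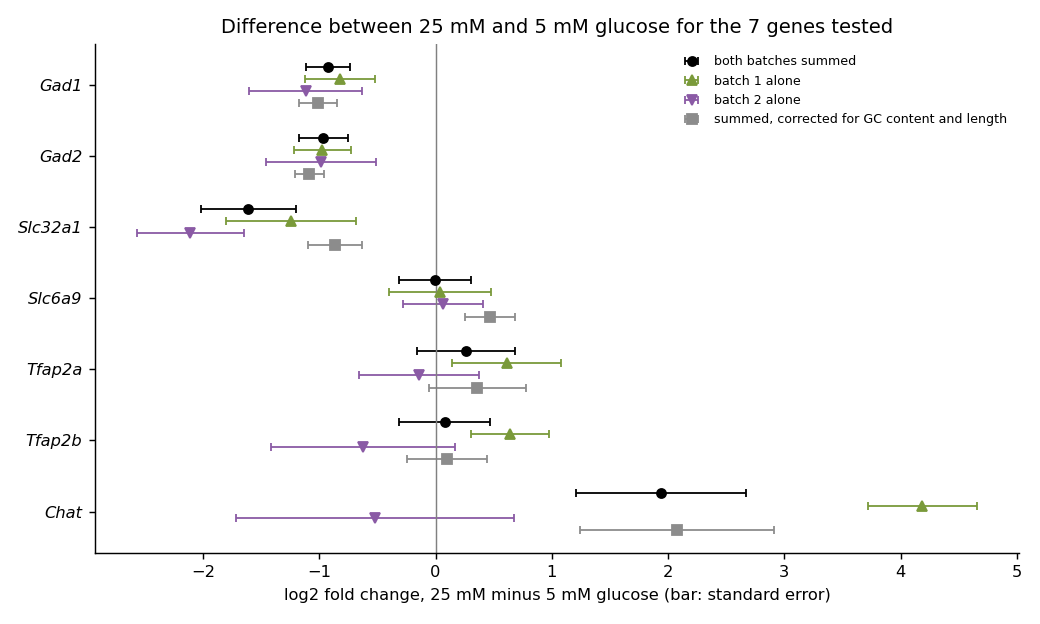
Log2 fold change, 25 mM minus 5 mM, with its standard error for the 7 genes tested, from both batches summed, from each batch alone and with the offset for GC content and length. Gad1, Gad2 and Slc32a1 stay below 0 in all 4, Chat stands at 4.19 in batch 1 and −0.52 in batch 2, and Tfap2a and Tfap2b change sign between batches.

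On a scale that divides by transcript length (TPM, estimated transcript counts over annotated length, rescaled to a common total), which allows levels of different genes to be set side by side, Gad1 was highest at 88.1 ± 3.31 TPM at 5 mM and 50.6 ± 12.6 TPM at 25 mM (SD, n = 3). Gad2 came next at 22.2 ± 2.77 and 12.4 ± 2.19 TPM. Tfap2b (12.4 ± 4.65 and 14.5 ± 6.76 TPM) and Slc6a9 (10.2 ± 3.63 and 11.3 ± 3.77 TPM) lay within each other's spread at both concentrations, and at 25 mM so did Gad2. Tfap2a (3.24 ± 0.340 and 4.22 ± 2.48 TPM) and Slc32a1 (2.98 ± 1.54 and 1.06 ± 0.288 TPM) overlapped at 5 mM, where both ranges held values near 3 TPM. Chat (0.329 ± 0.376 and 1.38 ± 0.838 TPM), Th (0.147 ± 0.0536 and 0.312 ± 0.208 TPM) and Slc18a3 (0.081 ± 0.0352 and 0.111 ± 0.107 TPM) were the lowest at 5 mM, where they did not differ beyond their spread; at 25 mM the mean of Slc32a1 lay below that of Chat, within the spread of Chat.

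The 2 libraries of a biological replicate often lay far apart for these genes, though not in every replicate. Of the 7 members tested, the 2 libraries differed by more than in the middle gene of all those tested for 6 in replicates 1 and 3 of each concentration, but for 2 in replicate 2 at 5 mM and 3 in replicate 2 at 25 mM. In replicate 3 at 5 mM the batch 1 library had 211 CPM of Gad1, 99.2 of Gad2 and 44.9 of Tfap2b, and the batch 2 library had 63.7, 29.8 and 9.95 CPM. Those log2 differences of −1.72, −1.72 and −2.12 were larger in size than in 99.2%, 99.2% and 99.7% of genes tested, whose median was 0.289. Replicate 3 at 25 mM showed the same direction, with 85.0 and 29.0 CPM of Gad1, 38.0 and 18.2 CPM of Gad2, and 34.7 and 8.33 CPM of Tfap2b. In replicate 1 at 5 mM the order was the opposite, with 109 and 182 CPM of Gad1 and 32.9 and 85.4 CPM of Tfap2b in batches 1 and 2.

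In the single libraries, therefore, the conditions overlapped for Gad1: the lowest 5 mM library, at 63.7 CPM, lay below 4 of the 6 libraries at 25 mM (66.0, 85.0, 90.6 and 117 CPM). The separation of the replicates holds for the summed libraries, in which the 5 mM values of Gad1 came to 135 to 142 CPM although single libraries ran from 63.7 to 211 CPM. Technical libraries of 1 replicate differed by far more than sampling noise, with a mean chi-square per gene of 40.7 to 132 over the 6 pairs. In the main fit they were therefore summed and not counted as repeats. The alternative fit of 12 libraries with a batch term did count them as separate samples.

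Genes most like each member over the 12 libraries were taken from 12424 genes with a mean of at least 5 CPM, by Pearson correlation of log2 CPM. Rcan2, a regulator of calcineurin, headed the list for both Gad1 (0.973) and Gad2 (0.985), followed by Gad2 itself (0.964) and Nhs (0.972). For Slc32a1 they were Sept5, a septin of nerve terminals (0.963), and Cacna1i, a T-type calcium channel subunit (0.957). For Slc6a9 they were Sptan1 (0.949) and Rps6ka2 (0.897), for Tfap2a Fgf14 (0.913) and Ccdc30 (0.908), for Tfap2b Dach2 (0.989) and Kctd8 (0.98), and for Chat Rims1 (0.954) and Ankrd45 (0.949). None of these was called either: edgeR adjusted p-values ran from 0.0555 for Cacna1i to 0.99 for Kctd8. The 12 libraries are 6 replicates in pairs, and these values describe them only.

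Amacrine transcription factors outside the AP-2 family gave 0 calls among 12 tested of 14, with 1 gene higher and 1 lower at an unadjusted p under 0.05. Their log2 fold changes ran from −0.61 for Ebf1 (23.3 CPM against 15.3 CPM, edgeR adjusted p 0.132) to 2.02 for Neurod6 (0.263 CPM against 1.09 CPM, adjusted p 0.0847), a factor of an amacrine subtype that uses neither GABA nor glycine. The median was −0.09. Peptide and subtype markers gave 0 calls among 19, with 2 higher and 3 lower at an unadjusted p under 0.05 and a median of 0.09. They ran from −1.36 for Stx1a, a syntaxin of amacrine terminals (5.15 CPM against 2.00 CPM, adjusted p 0.197), to 1.62 for Ppp1r17, a marker of the same subtype as Neurod6 (2.49 CPM against 7.73 CPM, adjusted p 0.181). These lists, like the 9 genes, held values on both sides of 0.

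Markers of other retinal cells moved with glucose in part. Rod genes were higher: 6 of 10 passed at an adjusted p under 0.05, all higher at 25 mM, with a median log2 fold change of 1.23. Of those 6, the 4 with the largest values were Rp1 (3.44, edgeR adjusted p 0.041), Cnga1 (2.12, 0.0261), Pde6b (1.65, 0.0217) and Nrl (1.33, 0.0261), and the lowest of all 10 was Gnat1 (0.45, 0.308). Vascular and pericyte genes had a median of −1.73, with 0 of 10 called and 8 lower at an unadjusted p under 0.05, and ran from −2.46 for Pdgfrb (62.8 CPM against 11.4 CPM, adjusted p 0.0594) to 0.09 for Rgs5. Their median was −2.72 in batch 1 alone, with 8 called lower, and −0.74 in batch 2 alone, with none called; the offset for GC content and length left 3 called lower. Their summed level was 614.2 to 2239 CPM at 5 mM and 497.5 to 1155 CPM at 25 mM. The part of rod and vascular RNA in the values of the GABA genes was not tested.

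Müller glia genes gave 0 calls among 10, with 1 higher and 3 lower at an unadjusted p under 0.05, from −1.51 for Vim (1892 CPM against 663 CPM, adjusted p 0.0555) to 0.76 for Aqp4, with a summed level of 3759 to 5645 CPM at 5 mM and 2292 to 4223 CPM at 25 mM. Bipolar genes gave 0 calls among 10, with 3 higher and 2 lower at that p and the highest value, 1.52, for Grik1. Ganglion cell genes gave 0 calls among 10, with 1 lower at that p, from −1.68 for Rbpms to 1.26 for Slc17a6. Horizontal cell genes, which include Tfap2b, gave 0 calls among 7 tested of 8, none at that p, and ran from −0.58 for Slc4a3 to 0.83 for Onecut2, with summed levels of 100.5 to 169.6 CPM and 73.67 to 173.9 CPM. Pigment cell genes gave 0 calls among 6 tested of 10, with 1 higher and 1 lower at that p, from −1.80 for Tyrp1 to 1.41 for Rgr, and Rpe65 was at 0.0267 CPM and 0.0575 CPM. All these counts of calls are edgeR's. DESeq2 called 8 higher rod genes, 8 lower vascular genes, 2 lower genes each of the GABA clearance, dopamine and Müller glia lists and 1 lower gene of the glycine list. It also called 1 higher transcription factor, 2 higher and 3 lower peptide or subtype markers, 1 lower ganglion gene, 1 higher and 2 lower bipolar genes and 1 higher and 1 lower pigment gene, and none of the starburst, AP-2 and horizontal lists. Limma-voom called 7 rod genes and none of the other lists.

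The batches gave different counts for these lists. In batch 1 alone edgeR called 6 higher and 1 lower bipolar genes, 5 higher peptide or subtype markers, 4 higher starburst genes, 3 higher transcription factors, 5 higher rod genes and 8 lower vascular genes. It also called 1 higher and 1 lower gene in each of the glycine, dopamine and ganglion lists, 1 lower gene each of the GABA clearance and Müller glia lists, and none of the AP-2, horizontal and pigment lists, among 3279 genes in all. In batch 2 alone it called none of them. The median log2 fold change was above 0 in batch 1 and below 0 in batch 2 for 8 of the 14 lists, among them the bipolar (1.15 and −0.34), horizontal (0.58 and −0.62) and transcription factor lists (0.40 and −0.25), whereas the rod list stood at 1.39 and 1.42. With the offset for GC content and length edgeR called 9 higher rod genes, 3 lower vascular genes, 1 higher and 2 lower Müller glia genes, 1 higher starburst gene, and 1 lower gene each of the GABA clearance, ganglion, bipolar and pigment lists, among 2956 genes in all.

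**Figure D5:**
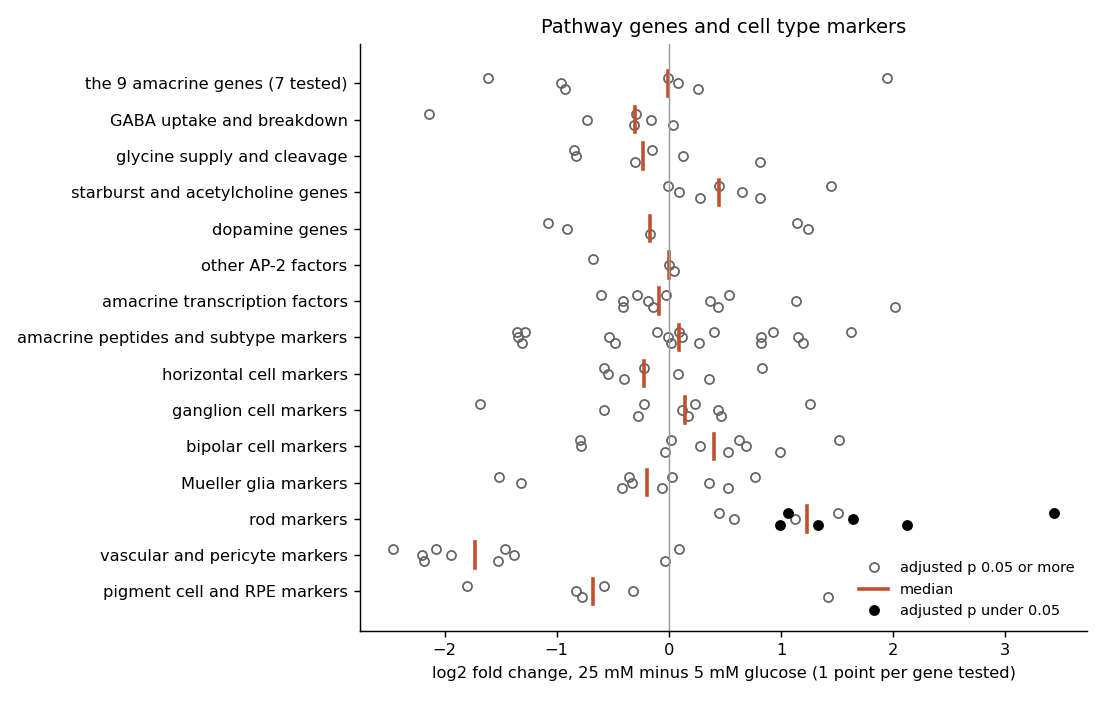
Log2 fold change, 25 mM minus 5 mM, of each gene tested in the amacrine set and in the pathway and marker lists; red lines are list medians and filled points have an adjusted p under 0.05. The only filled points are 6 rod genes, and the 7 amacrine genes tested spread from −1.61 to 1.94.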

How the data were processed

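Gene and transcript expression was taken from 2 tables that the authors deposited with estimated counts (expected counts) per library, not scaled between libraries, with a column for each technical library. GRCm38 is named in the submitters' processing notes; the aligner, counting tool and annotation are not given in the sources used here. Of nonzero gene values 100% were not whole, and 81.67% differed by over 1% from the sum of the gene's transcripts (9931 genes with over 100 counts in every library), so the gene values look rescaled for transcript length; this is read from the values and not stated. The RNA kit keeps the strand and suits small inputs, and reads were pairs of 101 bases. Amplified reads without molecular identifiers are not independent molecules, so totals and limits cover counting error only.

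Symbols, positions, GC content and lengths came from GENCODE M21, which matched 48766 of 53707 genes (90.8%) and 91.99% of 146263 transcripts. Technical libraries were summed, rounded to whole counts, filtered with filterByExpr and scaled by TMM. The comparison of 25 mM with 5 mM used edgeR 4.0.16 (quasi-likelihood test as in version 3, R 4.3.3) with Benjamini-Hochberg adjustment over 21061 genes; CPM uses TMM library sizes. The design had named counts; expected counts were used instead, after rounding. edgeR called 417 genes at an adjusted p under 0.05 and 0 at an adjusted p under 0.01 with a fold change over 2 (6052 at an unadjusted p under 0.05, and 3489 by DESeq2 1.42.0 at an adjusted p under 0.05). Ratios had a pseudocount of 0.5 and a two-sided exact permutation test. The scripts were tested on simulated counts. Promoter sequences are from RefSeq.

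Named genes were all 9 members, of each list the genes called (up to 4) and the highest and lowest log2 fold change, and the 2 genes most like each member; exceptions are marked. The members, lists and tests were chosen with earlier results of these data known. Whether the 3 replicate numbers pair the conditions is not given in the sources used here, and the main fit did not pair them. Deviations of same-numbered replicates had correlations of 0.017, −0.591 and 0.394, and 3 replicates are too few to decide it. Alternatives were other scalings, filters and tools, single batches, a replicate block, a GC and length offset, transcript sums and left-out replicates. A few listed genes are left unreported.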

Additional observations from a re-analysis of the deposited data

Results flagged for a closer look

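Within the 6 libraries of a condition, 18 groups of values were examined for a library standing apart (Dixon's ratio), and 3 were found. Chance would give about 1 in 20, or 0.9, if the 6 libraries were independent. They are 3 replicates in pairs, and the flagged genes have few counts, so the 3 cannot be weighed against 0.9. Chat was at 2.42 CPM in the batch 2 library of replicate 1 at 5 mM, while the next highest library at 5 mM was at 0.239 CPM. In the same library Slc18a3, its neighbour in the cholinergic locus, was also the highest of its group, at 0.34 CPM (8 counts) against 0.132 CPM in the next. At 25 mM, Slc18a3 stood apart at 0.421 CPM (9 counts) in the batch 1 library of replicate 1, where Chat was also at its highest, 4.45 CPM, and Th was at 0.608 CPM. Each of these libraries also held the highest Tfap2b of its condition (85.4 and 68.1 CPM). The cause was not tested.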

How the results depend on the processing

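Under 22 alternatives Gad1 ran from −1.12 to −0.76 (log2), Gad2 from −1.09 to −0.82 and Slc32a1 from −2.11 to −0.86, never above 0; adjusted p ran from 0.002 to 0.427, 0.003 to 0.438 and 0.003 to 0.391, under 0.05 in 8, 8 and 5 of them. Members called at an adjusted p under 0.05 (0 in the report; all genes 417) were 4 with DESeq2 (all genes 3489), 3 with no filter (1979), 2 with 12 libraries and a batch term (2918), 2 in batch 1 alone (3279), 3 with the GC and length offset (2956), and, chosen after seeing the data, 1 with edgeR's newer method (595) and 3 with replicate 1 at 5 mM from its first library (1731). The fit of 12 libraries had no term for the replicate, so its p-values treat the 2 libraries of a replicate as independent samples. It is among the settings under 0.05 for Gad2 (edgeR adjusted p 0.039) and Slc32a1 (0.024). Batch 2 alone (2203 genes at an unadjusted p under 0.05), or replicate 2 at 25 mM from its second library alone (4406), left 0 of all genes called by edgeR. At an adjusted p under 0.01 with a fold change over 2, 1 member was called by DESeq2 (Slc32a1; all genes 1387), in batch 1 alone (Chat; 367), with the offset (Gad2; 126) and with offset and block (Gad2; 559). Leaving out a replicate gave 0 to 4 members and 0 to 5845 genes, the highest without replicate 1 at 5 mM.

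With a replicate block edgeR called 2 members, Gad1 and Chat, and 990 genes; with block and offset together 3 and 3319. The numbers share no stated litter or day, the deviations of same-numbered replicates correlated in only 1 of 3 pairs, and 1 of 6 samples correlated best with its own number. So few replicates cannot decide whether the numbers pair the conditions.

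Slc6a9 (−0.01) turned positive with library totals (0.040), limma-voom (0.044), a 1 CPM filter (0.045), the batch term (0.070), batch 1 (0.038), batch 2 (0.061), the block (0.021), the offset (0.467), both (0.443), transcript sums (0.042) and replicate 1 at 5 mM from its first library (0.096), and ran from −0.225 to 0.285 with a replicate left out. In batch 2 alone Tfap2a was −0.142, Tfap2b −0.624, Chat −0.520 and the Gad1/Gad2 ratio −0.182; in batch 1 the Tfap2a/Tfap2b ratio was −0.217. With a replicate left out Tfap2a ran from −0.181 to 0.619, Tfap2b from −0.184 to 0.461, Gad1/Gad2 from −0.095 to 0.118 and Tfap2a/Tfap2b from −0.206 to 0.179. The cause was not tested. Depth limits Slc18a3 and Th, at 0 to 13 counts per library.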
